A study of Mus musculus with 30 samples.

Results

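The natriuretic peptide system was described at the RNA level in mouse hearts through 8 genes: the hormones Nppa, Nppb and Nppc, the receptors Npr1, Npr2 and Npr3, and the processing proteases Corin and Furin. They were taken by symbol from the 55487 rows of the deposited count table, and all 8 were matched to a row. The low-count filter kept 7 of them in each cohort; Nppc did not pass. Levels are in CPM, read counts scaled to the library's depth (TMM, within a cohort). The labels number the hearts within a group and say no more of their origin, so p-values measure only the spread between these hearts.

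Tissue was collected 8 weeks after surgery, which was either sham or TAC, a transverse aortic constriction that makes the left ventricle pump against a narrowed vessel. Clips of either of a pair of widths were used, and the labels do not say which heart had which. The question named in the series description is what a higher level of Cpt1a, which starts the transport of fatty acids into mitochondria, does in the overloaded heart. In the floxed cohort, FF_sham and FF_TAC are mice labelled CPT1a floxed, and KO_sham and KO_TAC are labelled as cardiac specific CPT1a knockouts, with 4 hearts in each group. The driver of the deletion is not named in the labels, and the design text calls it a knockdown. The titles of the KO_TAC hearts name both TAC and sham, while their treatment label is TAC. In the AAV9 cohort all mice are C57Bl/6. PBS_sham and PBS_TAC received saline and have 3 hearts each, and AAV_sham and AAV_TAC received AAV9.Cpt1a, a viral vector built for expression in heart muscle, and have 4 hearts each. Saline is not an empty vector, so vector and cargo cannot be told apart. The age of the mice is not given in the sources used here.

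Atrial natriuretic peptide (from Nppa) and B-type natriuretic peptide (from Nppb) are hormones that heart muscle releases when it is stretched. In the adult heart Nppa is made mainly in the atria, and the ventricle makes more of both hormones under load, which is why they serve as markers of cardiac stress. Corin and Furin are the proteases known to cut the precursors. Npr1 and Npr2 are receptors that make the messenger cGMP when bound, Npr1 by the hormones of Nppa and Nppb and Npr2 by that of Nppc, while Npr3 takes the peptides up and clears them.

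Nppb and Nppa lie side by side on chromosome 4 of the mouse genome (GRCm38), both on the plus strand, Nppb at chr4:147985788-147987205 and Nppa at chr4:148000722-148002079, with 13516 bases between them. Bases around their starts are shown because both genes rose after TAC in the knockout hearts, as described further on. The gene coordinates are those of GENCODE, which draws the start of Nppb further upstream than RefSeq does. For Nppa these are the 250 bases before its RefSeq start, chr4:148000472-148000721 (GRCm38.p6, plus strand). For Nppb a stretch of 30 bases is shown, chr4:147985795-147985824 (plus strand), which lies 105 to 76 bases before its RefSeq start and inside the gene as GENCODE draws it.
Nppa: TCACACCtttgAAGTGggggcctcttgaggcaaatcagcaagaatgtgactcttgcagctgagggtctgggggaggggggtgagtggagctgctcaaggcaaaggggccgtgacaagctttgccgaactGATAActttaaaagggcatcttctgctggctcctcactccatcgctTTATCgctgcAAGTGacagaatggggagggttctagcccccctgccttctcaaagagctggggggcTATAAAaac
Nppb: GGAATGcagctGATAAatcagaGATAAccc

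Capitals mark matches to 5 short motifs, searched on both strands except the last. The motif known for factors of the Gata family was searched as GATAA. That of NK2 homeobox factors, among them Nkx2-5, was searched as AAGTG. The M-CAT element, which Tead factors bind, was searched as CATTCC. The element of T-box factors was searched as GGTGTGA. The TATA box, where transcription is set up, was searched as TATAAA on the strand of the gene. The Nppa stretch holds GATAA at 2 places (once as TTATC on the other strand), AAGTG at 2, GGTGTGA once (read on the other strand) and TATAAA once, and none of these matches overlap. The Nppb stretch holds CATTCC once (on the other strand) and GATAA at 2 places. It was cut to span these matches, so its short length cannot be set beside shares for full windows. The full window of 250 bases before the Nppb start held CATTCC once, GATAA at 2 places and TATAAA once. Of 32851 RefSeq promoter windows of 250 bases, 22.6% held GATAA and 4.28% held it at least 2 times. AAGTG was in 40.7% of them and at least 2 times in 10.2%, CATTCC in 12.6%, GGTGTGA in 3.33% and TATAAA in 7.59%. Among the promoter windows of the 8 genes, GATAA was found in those of Nppa and Nppb alone, while AAGTG was also found in Furin, at 4 places before one of its starts, and TATAAA also in Nppb, Nppc and Furin. A match is a description of the letters, and binding was not measured here.

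The libraries held 14839758 to 22070373 counts each. Cpt1a, the targeted gene, was 37.8 to 52.7 CPM in FF_sham and 11.1 to 19.5 CPM in KO_TAC. It was 46.2 CPM in the library labelled KO_sham 2, within the FF_sham range and above the 20.3 to 23.6 CPM of the other KO_sham hearts, and 20.3 and 16.2 CPM in the libraries labelled FF_TAC 2 and FF_TAC 3. FF_TAC 1 and 4 had 48.8 and 34.0 CPM. Cpt1a in KO_sham 2, FF_TAC 2 and FF_TAC 3 thus goes against the genotype labels of these 3 libraries. Whether their labels are wrong was not tested. The deleted exons are not named, so the check covers the whole transcript. In the AAV9 cohort Cpt1a was 37.4 to 67.8 CPM in the saline hearts and 44.8 to 88.3 CPM in the vector hearts, which overlap. Summed haemoglobin transcripts were 1.40 to 51.1 CPM in 7 libraries, all 4 of KO_TAC and the 3 just named, and 294 to 943 CPM in the other 23. PBS_sham 3 stood apart: its 4 smooth muscle markers summed to 1791 CPM against 61.5 to 342 CPM elsewhere, and its 6 ventricular markers to 25708 CPM against 41305 to 66380 CPM.

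The hearts also differed in atrial RNA. Myl7, the atrial myosin light chain, was 0 to 0.750 CPM in 16 libraries and 21.2 to 3131 CPM in the other 14. Sln, another atrial transcript, was 0 to 0.181 CPM in the libraries low in Myl7. The 7 atrial markers summed to 24.0 to 42.6 CPM in those libraries. Libraries with atrial RNA were found in every group: FF_sham 2 and 3, FF_TAC 1, the library labelled KO_sham 2, KO_sham 4, KO_TAC 1, all 3 of PBS_sham, PBS_TAC 2, AAV_sham 1, 2 and 3, and AAV_TAC 3. The 7 markers did not all follow Myl7. Bmp10 was 527 CPM in PBS_sham 2, 386 CPM in PBS_TAC 2 and 278 CPM in AAV_TAC 3. In every other library it was at most 0.686 CPM, the level in KO_TAC 1. Bulk RNA cannot tell a larger share of atrial cells from more atrial RNA per cell.

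Nppa was the most variable of the 8 genes. It ranged from 14.4 CPM in FF_sham 4 to 8704 CPM in KO_TAC 1, a 604-fold span over the 30 libraries. Per kilobase of exon its median was 436 CPM, the highest of the family, ahead of Nppb at 394 CPM per kilobase. In the floxed cohort Nppa was 194, 2439, 283 and 14.4 CPM in FF_sham 1 to 4. It was 256 and 197 CPM in FF_TAC 1 and 4, and 150.2 and 489.8 CPM in the libraries labelled FF_TAC 2 and 3. All FF_TAC hearts lay inside the range of FF_sham. In the knockout Nppa was 262, 103 and 444 CPM in KO_sham 1, 3 and 4 and 1480.1 CPM in the library labelled KO_sham 2. It was 8704, 7078, 8682 and 4495 CPM in KO_TAC 1 to 4, so that every KO_TAC heart lay above all 26 other hearts, the highest of which was PBS_sham 2 at 2589.9 CPM.

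**Figure D1:**
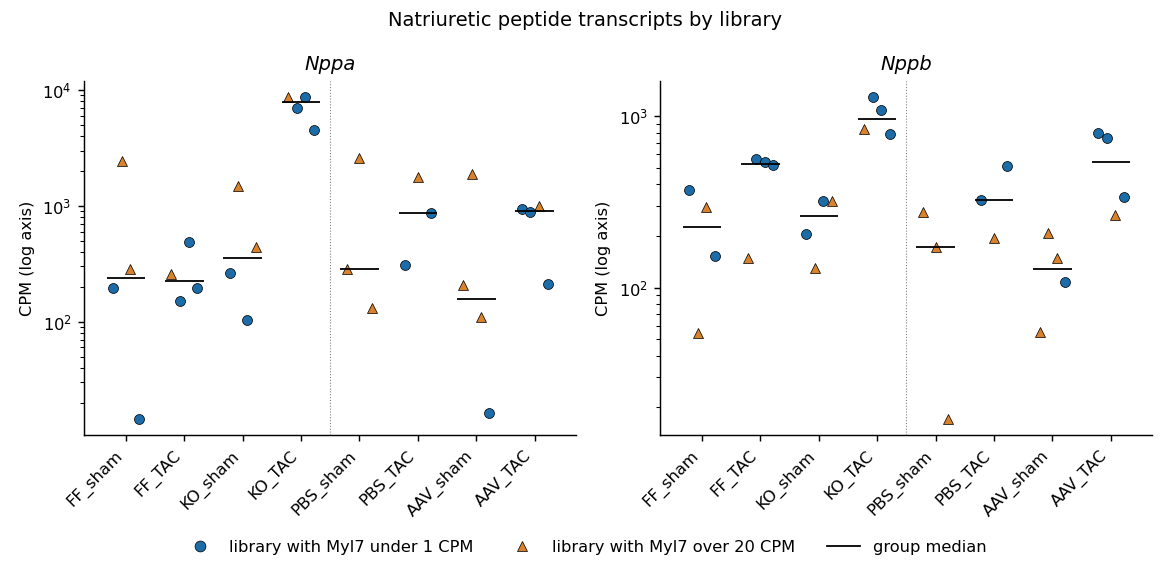
Nppa and Nppb in CPM (log axis) for each of the 30 libraries by group; triangles are libraries with Myl7 at 21.2 CPM or more, circles those at 0.750 CPM or less, and bars are group medians. The 4 KO_TAC hearts lie between 4495 and 8704 CPM for Nppa, and 3 of them are circles.

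Nppa rose with TAC in the knockout by a log2 fold change of 3.66 (SE 1.11, adjusted p = 0.0271, edgeR quasi-likelihood test), from 572 ± 621 CPM in KO_sham to 7240.1 ± 1982 CPM in KO_TAC (SD, n = 4 each). Against FF_TAC, at 273 ± 151 CPM, the KO_TAC level was higher by 4.73 on the log2 scale (SE 1.17, adjusted p = 0.0150). The background was wide: of 15596 genes tested, 25.8% were called between KO_TAC and KO_sham (14.3% higher, 11.5% lower), and between KO_TAC and FF_TAC 14.3% were called (7.53% higher, 6.80% lower). Of the 7 members tested, 2 rose and 0 fell in the first comparison, and 1 was higher and 0 lower in the second. Their median change was 0.19 beside 0.02 for all genes, and 0.38 beside 0.04. Both comparisons use the same KO_TAC hearts. The change with TAC in the knockout differed from that in the controls by 5.09 (SE 1.5), which was not called (adjusted p = 0.163), in a test of the difference that called 0.0449% of genes. Of the 7 members that test called 0, with Nppa and Furin at an unadjusted p under 0.05; DESeq2 called Nppa (5.09, adjusted p = 0.0262) and voom none.

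The call between KO_TAC and KO_sham was lost without KO_sham 1, KO_sham 3, KO_sham 4 or KO_TAC 3 (highest adjusted p = 0.0708), while the difference ran from 3.31 to 4.74. Against FF_TAC it was lost without FF_TAC 4 (adjusted p = 0.0561), with values from 4.52 to 5.16. With a term for low haemoglobin, neither difference was called (2.99, adjusted p = 0.206; 3.97, adjusted p = 0.0839), nor was the second among low-haemoglobin hearts alone (4.48, adjusted p = 0.170). In that last fit FF_TAC was the libraries labelled FF_TAC 2 and 3 alone, whose Cpt1a goes against their labels. All KO_TAC hearts are low in haemoglobin transcripts, and what that low level does to Nppa was not tested. The haemoglobin term, here and for the genes below, draws only on KO_sham and FF_TAC, the groups holding both levels. Their low hearts are the 3 libraries whose Cpt1a goes against their labels. Leaving out the 3 libraries whose Cpt1a goes against their labels kept both calls (4.74, adjusted p = 0.0206, and 4.99, adjusted p = 0.0387). FF_TAC was then FF_TAC 1 and 4 alone. Every heart compared with KO_TAC was then high in haemoglobin transcripts, so group and haemoglobin level cannot be told apart in that fit.

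Among sham hearts, Nppa was higher where Myl7 was highest. In the 10 sham hearts with Myl7 at 21.2 CPM or more, Nppa ran from 109 to 2589.9 CPM with a median of 366 CPM, and in the 5 with Myl7 at 0.605 CPM or less it ran from 14.4 to 262 CPM with a median of 103 CPM. The 4 sham hearts with the most Myl7 (601 to 1105 CPM) are also the 4 with the most Nppa; the part of atrial RNA in these levels was not tested. TAC hearts outside KO_TAC did not follow one order: the library labelled FF_TAC 3, with Myl7 at 0, had the most Nppa of FF_TAC (489.8 CPM, against 256 CPM in FF_TAC 1 with 74.2 CPM of Myl7). AAV_TAC 1 and 2, low in Myl7, had 943 and 882 CPM of Nppa, beside 992 CPM in AAV_TAC 3 with 275 CPM of Myl7. KO_TAC 1 carried 3131 CPM of Myl7. KO_TAC 2, 3 and 4 carried 0.119 to 0.750 CPM of Myl7 and had 4495 to 8682 CPM of Nppa. Among the 16 hearts low in Myl7, these 3 were the highest, and the next was AAV_TAC 1 at 943 CPM. When only these 16 hearts were fitted, the KO_TAC differences were 5.18 from KO_sham (adjusted p = 0.0134) and 4.58 from FF_TAC (adjusted p = 0.0155). That fit held 3 KO_TAC, 2 KO_sham and 3 FF_TAC hearts. The FF_TAC hearts were FF_TAC 4 and the libraries labelled FF_TAC 2 and 3, whose Cpt1a goes against their labels. Haemoglobin was 3.89 to 12.9 CPM in these KO_TAC hearts and 678 and 476 CPM in KO_sham 1 and 3. Surgery and haemoglobin level thus cannot be told apart in the first difference.

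**Figure D2:**
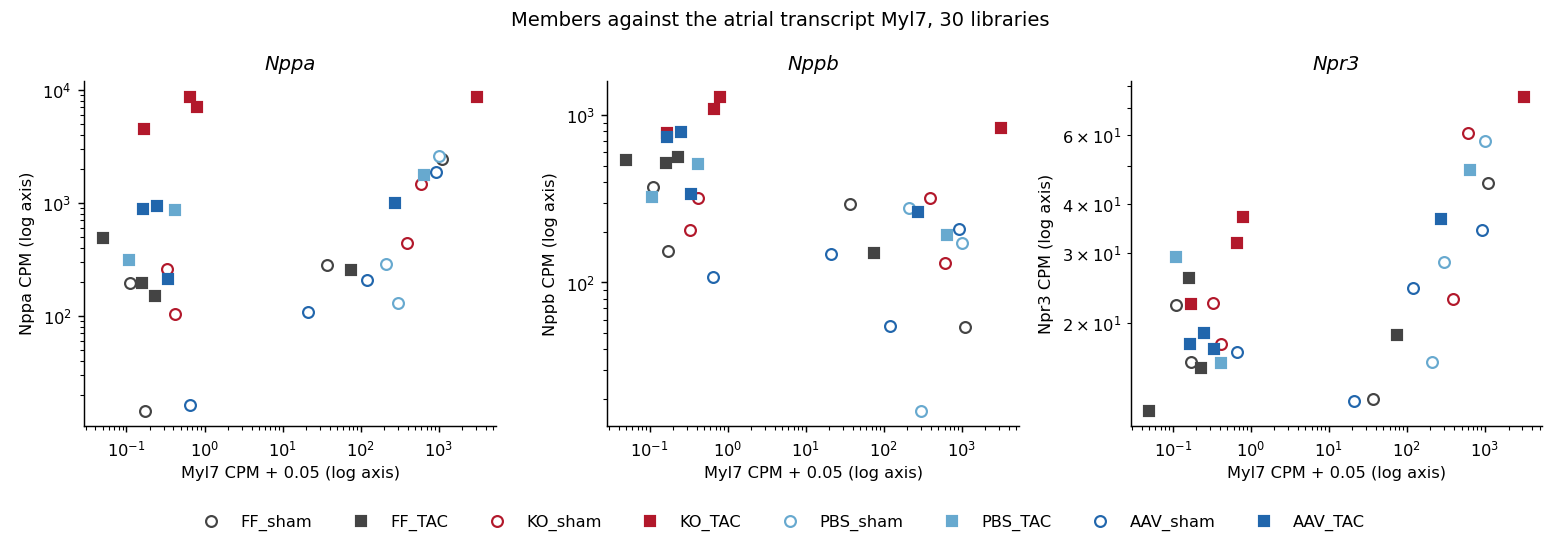
Nppa, Nppb and Npr3 (CPM, log axis) against Myl7 (CPM plus 0.05, log axis) in the 30 libraries, coloured by group, with open circles for sham and squares for TAC. KO_TAC 2, 3 and 4 have high Nppa at Myl7 of 0.750 CPM or less, and for Npr3 the highest hearts lie at high Myl7.

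In the other comparisons Nppa was not called. The value for FF_TAC against FF_sham was −1.42 (SE 1.02, adjusted p = 0.595), with FF_sham 2 alone setting its sign: without that heart it was 0.73. No gene was called there by edgeR (0% of 15596); at an unadjusted p under 0.05 there were 1733 genes, DESeq2 called 175 and voom 0. Of the members, edgeR called 0 of 7, with Corin and Furin at an unadjusted p under 0.05, and neither DESeq2 nor voom called one. Between KO_sham and FF_sham the value was −0.36 (SE 1.0, adjusted p = 1.0), and 1.80 without FF_sham 2. That comparison also called 0% of genes and 0 of 7 members, with 814 genes and 1 member, Furin, at an unadjusted p under 0.05; DESeq2 called 15 genes and voom 30, none of them members.

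In the AAV9 cohort Nppa was 288, 2589.9 and 130.3 CPM in PBS_sham 1 to 3 and 311, 1763 and 862 CPM in PBS_TAC 1 to 3. It was 206, 1884, 109 and 16.2 CPM in AAV_sham 1 to 4 and 943, 882, 992 and 213 CPM in AAV_TAC 1 to 4. Groups overlapped throughout. The value was −0.04 (SE 1.32, adjusted p = 0.989) for PBS_TAC against PBS_sham and 0.45 (SE 1.14, adjusted p = 0.996) for AAV_TAC against AAV_sham. It was −0.86 (SE 1.23, adjusted p = 0.659) for AAV_sham against PBS_sham, −0.37 (SE 1.23, adjusted p = 1.0) for AAV_TAC against PBS_TAC and 0.49 for the interaction. The signs of −0.04, −0.86 and 0.49 turned without PBS_sham 2, to 2.23, 1.41 and −1.78, and that of −0.37 turned without PBS_TAC 2, to 0.37. The first also turned without PBS_TAC 1 (0.39) or PBS_TAC 3 (0.05). Without AAV_sham 2 the value for AAV_TAC against AAV_sham was 2.78, and it was not called. The only AAV_sham heart low in Myl7, AAV_sham 4, had 16.2 CPM of Nppa, against 213 to 943 CPM in the 3 such AAV_TAC hearts. A fit of the low-Myl7 hearts gave 5.39 for this comparison (adjusted p = 0.128), with the lone sham heart assumed to vary like the others.

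Exons of Nppa overlap those of the antisense gene Gm13054 along 532 of 865 bases (61.5%). The library kit keeps strand, but the strand setting of the counting is not given in the sources used here, so values of Nppa are uncertain to that extent. Gm13054 counts were 0.0365% to 1.47% of those of Nppa in each library. In KO_TAC 2, 3 and 4 this share was 0.0365% to 0.0728%, and in KO_TAC 1 it was 0.475%. Exons of Npr1, Npr2, Npr3, Corin and Furin overlap an antisense or divergent gene along 11.7%, 5.7%, 3.42%, 2.72% and 1.29% of their length, and the same uncertainty holds for them. Nppb and Nppc have no such overlap.

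Nppb was high in the knockout TAC hearts as well. In the floxed cohort it was 371, 54.2, 296 and 154 CPM in FF_sham 1 to 4. It was 149.7 and 517 CPM in FF_TAC 1 and 4, and 564 and 537 CPM in the libraries labelled FF_TAC 2 and 3. In the knockout it was 205, 322 and 318 CPM in KO_sham 1, 3 and 4, and 131 CPM in the library labelled KO_sham 2. KO_TAC 1 to 4 had 844, 1290.4, 1088 and 782 CPM, all above every heart of the other 3 floxed groups. The 3 highest FF_TAC hearts lay above all FF_sham hearts, and FF_TAC 1 lay below 3 of them.

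Nppb rose with TAC in the knockout by 2.04 on the log2 scale (SE 0.51, adjusted p = 0.0121, edgeR), from 244 ± 92.9 to 1001 ± 234 CPM (SD, n = 4 each). The call held in each of the 16 fits that left out a floxed heart, with values from 1.82 to 2.19, and was lost with the haemoglobin term (2.01, adjusted p = 0.166). Among hearts low in Myl7, with the same 3 KO_TAC and 2 KO_sham hearts as for Nppa, it was 1.97 (adjusted p = 0.00925). Between KO_TAC and FF_TAC, at 442 ± 196 CPM, the value was 1.18 (SE 0.50) and was not called (adjusted p = 0.120), although no heart overlapped. With Myl7 as a covariate it was called, at 1.46 (adjusted p = 0.0428). The interaction was 1.02 (SE 0.70, adjusted p = 0.537), so a different response of the knockout to TAC was not shown for Nppb. FF_TAC against FF_sham gave 1.01 (SE 0.50, adjusted p = 0.461) and KO_sham against FF_sham 0.16 (SE 0.49, adjusted p = 1.0), neither called; the second changed sign without FF_sham 2 (−0.17) and was near 0 without KO_sham 3 or KO_sham 4.

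The vector cohort showed TAC levels of Nppb above sham levels in the vector group without a call. PBS_sham 1 to 3 had 278, 173 and 17.1 CPM, and PBS_TAC 1 to 3 had 324, 194 and 515 CPM. AAV_sham 1 to 4 had 55.1, 209.5, 148 and 108 CPM, and AAV_TAC 1 to 4 had 799, 741, 264 and 339 CPM. The groups of vector hearts did not overlap, those of saline hearts did. AAV_TAC against AAV_sham was 2.04 (SE 0.66, adjusted p = 0.430), where 0.00635% of 15745 genes were called; voom called it (1.92, adjusted p = 0.0297). PBS_TAC against PBS_sham was 1.14 (SE 0.75, adjusted p = 0.393), with 0.0318% of genes called. AAV_sham against PBS_sham was −0.26 (SE 0.69, adjusted p = 0.818; 0.0127% of genes called), and its sign turned to 0.46 without PBS_sham 1. AAV_TAC against PBS_TAC was 0.64 (SE 0.70, adjusted p = 1.0; 0.0381% of genes called). The interaction of vector and TAC was 0.90 and was not called; 0.00635% of genes were. In these 5 comparisons edgeR called 0 of 7 members. At an unadjusted p under 0.05 were Npr1 in PBS_TAC against PBS_sham, in AAV_sham against PBS_sham and in the interaction, and Nppb and Corin in AAV_TAC against AAV_sham.

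The balance of the 2 hormones did not overlap between KO_TAC and FF_TAC. The ratio of Nppa to Nppb CPM was 5.49 to 10.3 in the 4 KO_TAC hearts. In FF_TAC it was 0.267 to 1.71, and in KO_sham 0.321 to 1.40 apart from the library labelled KO_sham 2, at 11.3. The ratio was 45 in FF_sham 2 and 15 in PBS_sham 2, above the KO_TAC range. It was 9.11 in PBS_TAC 2, 8.99 in AAV_sham 2 and 7.62 in PBS_sham 3, inside that range. Among hearts low in Myl7 it was 5.49 to 7.98 in KO_TAC 2, 3 and 4 and 0.0937 to 1.67 in the rest. These ratios are a description and were not tested.

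Nppc (chr1:86666291-86670571, minus strand), whose product C-type natriuretic peptide is known from endothelial cells, was near absent. It had 0 counts in 17 of 30 libraries, at most 7 counts in any library and 29 counts in all, with 3 libraries above a floor of 3 counts. That floor corresponds to 0.136 to 0.202 CPM, depending on the library, and covers counting error only, since PCR copies are not independent molecules. No difference between groups was detectable at this depth.

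Of the receptors, Npr2 was the most abundant per length, with a median of 14.6 CPM per kilobase, against 6.66 for Npr1 and 2.38 for Npr3. Npr1 (chr3:90450591-90465866, minus strand), the receptor for the hormones of Nppa and Nppb, was 32.2, 34.2, 30.7 and 27.3 CPM in FF_sham 1 to 4 and 34.1 and 26.8 CPM in FF_TAC 1 and 4. It was 19.5 and 19.7 CPM in the libraries labelled FF_TAC 2 and 3. KO_sham 1, 3 and 4 had 21.9, 24.9 and 34.9 CPM, the library labelled KO_sham 2 had 36.1 CPM, and KO_TAC 1 to 4 had 41.8, 25.8, 18.7 and 17.3 CPM. All 4 groups overlapped, and Npr1 was not called in any floxed comparison, with the 12.7-fold higher Nppa of KO_TAC over KO_sham beside it.

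Npr1 in the AAV9 cohort depended on which PBS_sham hearts were kept. PBS_sham 3 had 102 CPM, PBS_sham 1 and 2 had 34.2 and 57.8 CPM, and the other 11 hearts of the cohort lay between 26.3 and 37.3 CPM. The value was −0.99 (SE 0.28, adjusted p = 0.154) for PBS_TAC against PBS_sham and −0.96 (SE 0.26, adjusted p = 0.132) for AAV_sham against PBS_sham; DESeq2 called both (adjusted p = 0.0393 and 0.0317). The 2 comparisons share PBS_sham. Without PBS_sham 3, the heart rich in smooth muscle markers, the values were −0.49 and −0.47, and without PBS_sham 1 both were called (−1.28, adjusted p = 0.0101, and −1.25, adjusted p = 0.00534). The part of smooth muscle in the Npr1 level was not tested. For the vector interaction Npr1 gave 0.89 (SE 0.37, adjusted p = 0.688).

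Npr2 (chr4:43631935-43651244, plus strand), the receptor for C-type natriuretic peptide, varied little outside PBS_sham 3, which had 137 CPM against 47.8 to 80.1 CPM in the other 29 hearts. It was 58.6, 62.0 and 68.0 CPM in KO_sham 1, 3 and 4 and 71.6 CPM in the library labelled KO_sham 2. KO_TAC 1 to 4 had 64.7, 47.8, 47.9 and 55.2 CPM, and 3 of these 4 lay below every other heart of both cohorts. FF_TAC 1 and 4 had 68.1 and 72.1 CPM, and the libraries labelled FF_TAC 2 and 3 had 56.4 and 66.4 CPM. The values were −0.27 against KO_sham (SE 0.11, adjusted p = 0.0881) and −0.28 against FF_TAC (SE 0.11, adjusted p = 0.102), neither called by edgeR. With Myl7 as a covariate the second was called (−0.33, adjusted p = 0.0268). Without KO_TAC 1, the heart with the most atrial RNA, both were called (−0.38, adjusted p = 0.0126, and −0.40, adjusted p = 0.0164), as was the second without the library labelled FF_TAC 2 (−0.36, adjusted p = 0.0401). By voom both were called (−0.36, adjusted p = 0.00267, and −0.45, adjusted p = 0.00258).

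Npr3 (chr15:11839896-11907287, minus strand), the clearance receptor, was the least abundant receptor and spanned 12.0 to 75.0 CPM. Its 5 highest hearts were KO_TAC 1 at 75.0 CPM, the library labelled KO_sham 2 at 60.5 CPM, PBS_sham 2 at 57.9 CPM, PBS_TAC 2 at 48.8 CPM and FF_sham 2 at 45.3 CPM, all of them with 601 CPM of Myl7 or more. Among hearts low in Myl7 it ran from 12.0 to 37.1 CPM, and the 2 highest there were KO_TAC 2 and KO_TAC 3, at 37.1 and 31.8 CPM, with KO_TAC 4 at 22.3 CPM. KO_TAC stood at 41.6 ± 23.1 CPM and FF_TAC at 17.9 ± 5.98 CPM (SD, n = 4 each), a difference of 1.21 (SE 0.47, adjusted p = 0.0962) that edgeR did not call and DESeq2 did (1.21, adjusted p = 0.0414). Without KO_TAC 1 it was 0.75. The ratio of Npr3 to Npr1 CPM, clearance over signalling receptor, was 1.29 to 1.80 in the 4 KO_TAC hearts and 0.544 to 0.967 in the 4 FF_TAC hearts. It was 1.68 in the library labelled KO_sham 2, 1.32 in FF_sham 2 and 1.31 in PBS_TAC 2, inside the KO_TAC range, and it was not tested.

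**Figure D3:**
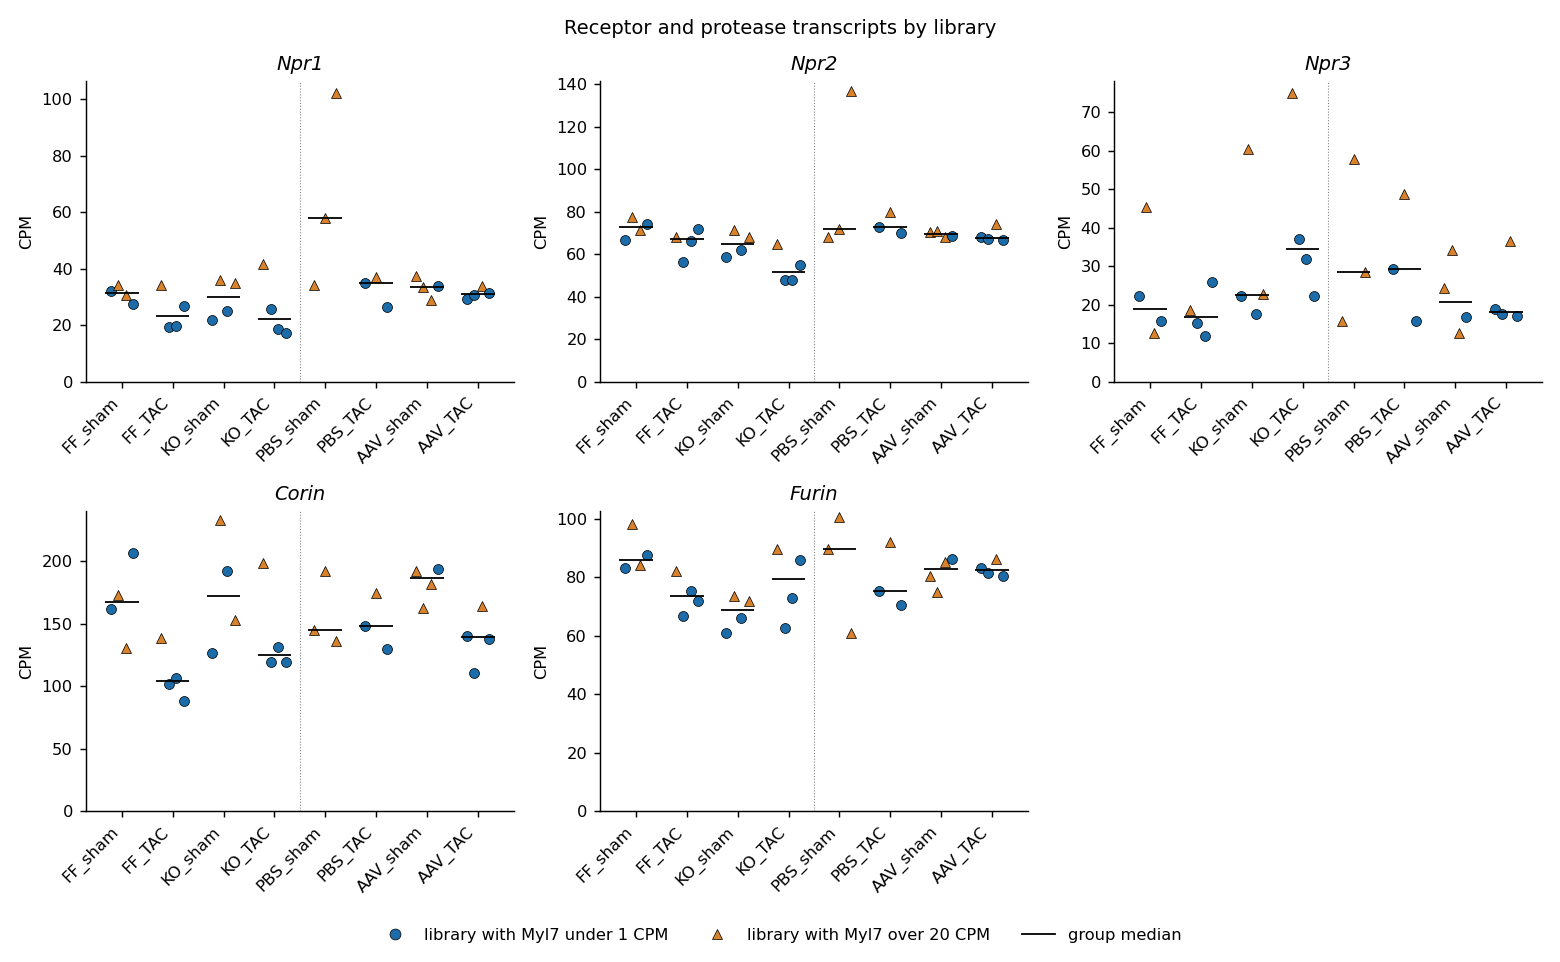
Npr1, Npr2, Npr3, Corin and Furin in CPM (linear axes from 0) for each library by group, with triangles for libraries with Myl7 at 21.2 CPM or more and bars for group medians. PBS_sham 3 stands out for Npr1 (102 CPM) and Npr2 (137 CPM), and Furin stays between 60.9 and 101 CPM.

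Corin (chr5:72300025-72504473, minus strand), the cell-surface protease of heart muscle that cuts the Nppa precursor, was the most abundant member per length after the 2 hormones, at a median of 27.2 CPM per kilobase. It was 162, 173, 130.4 and 207 CPM in FF_sham 1 to 4, and 139 and 88.0 CPM in FF_TAC 1 and 4. The libraries labelled FF_TAC 2 and 3 had 102 and 107 CPM. The value for FF_TAC against FF_sham was −0.62 (SE 0.22, adjusted p = 0.352), and only FF_TAC 1 reached into the sham range. In AAV_sham 1 to 4 it was 192, 163, 182 and 194 CPM and in AAV_TAC 1 to 4 it was 140.4, 111, 164 and 138 CPM, a difference of −0.40 (SE 0.15, adjusted p = 0.574). Neither was called. In KO_TAC Corin was 199, 119, 131 and 119 CPM, the highest being KO_TAC 1, the heart with the most Myl7. In KO_sham 1, 3 and 4 it was 126, 192 and 153 CPM, with 233 CPM in the library labelled KO_sham 2, and no floxed comparison called it.

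Furin (chr7:80388585-80405436, minus strand), the widely expressed convertase known to cut the Nppb precursor, was the steadiest member, with a 1.65-fold span from 60.9 to 101 CPM over 30 hearts. FF_sham 1 to 4 had 83.1, 98.1, 84.3 and 87.5 CPM. KO_sham 1, 3 and 4 had 60.9, 66.1 and 71.8 CPM and the library labelled KO_sham 2 had 73.6 CPM, all below FF_sham. FF_TAC 1 and 4 had 82.0 and 71.9 CPM and the libraries labelled FF_TAC 2 and 3 had 66.8 and 75.4 CPM, also all below FF_sham. The values were −0.37 for KO_sham (SE 0.12, adjusted p = 0.879) and −0.25 for FF_TAC (SE 0.12, adjusted p = 0.445), against the same FF_sham hearts and neither called. KO_TAC spread from 62.6 to 89.7 CPM, and the interaction was 0.45 (SE 0.16, adjusted p = 0.262). Furin in the vector and saline hearts was 70.7 to 101 CPM, with PBS_sham 3 at 61.1 CPM as the exception.

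**Figure D4:**
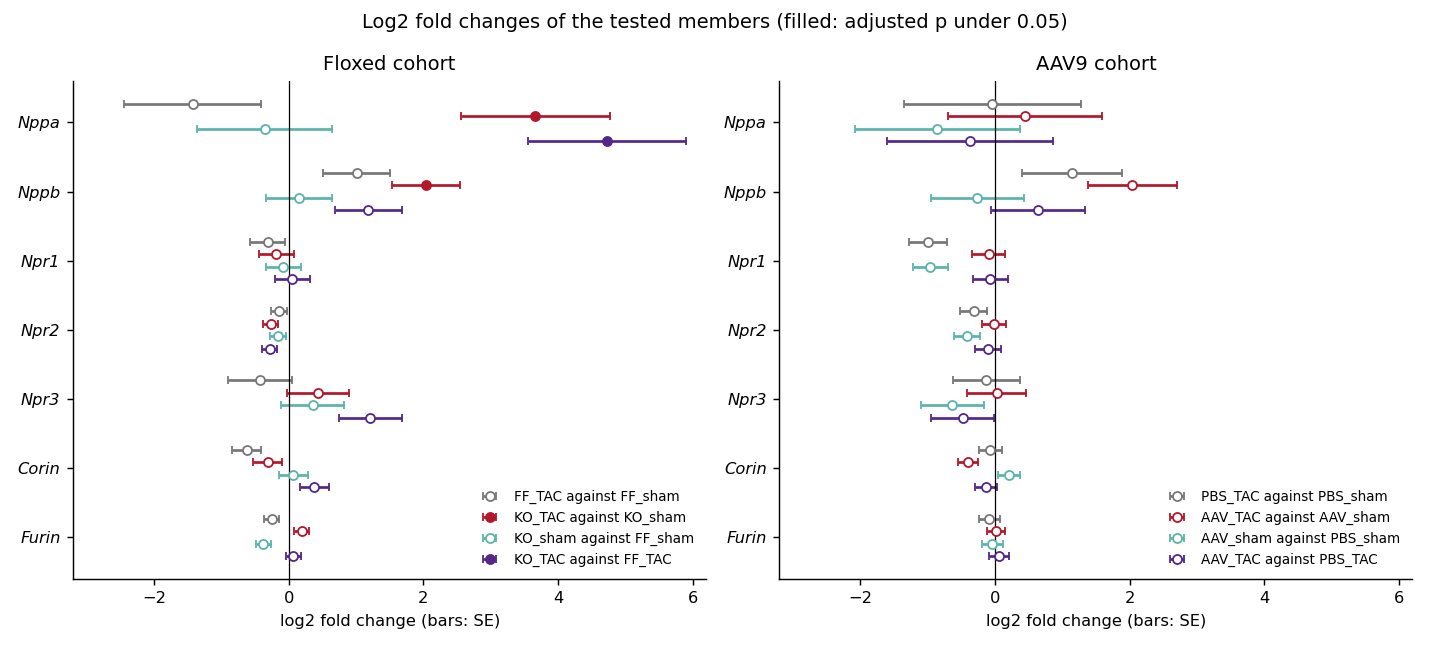
Log2 fold changes of the 7 tested members with SE bars in the 4 comparisons between pairs of groups of each cohort; filled points passed an adjusted p of 0.05. The filled points are Nppa and Nppb in KO_TAC against KO_sham and Nppa in KO_TAC against FF_TAC.

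Marker sums of other cell types also shifted in KO_TAC, with some overlap between groups. Bulk RNA does not count cells. The 5 fibroblast markers summed to 1265 to 1449 CPM in KO_TAC, 725 to 828 CPM in FF_TAC and 670.1 to 956 CPM in KO_sham. The 5 endothelial markers summed to 448 to 623 CPM in KO_TAC, 659 to 878 CPM in FF_TAC and 608 to 818 CPM in KO_sham. The 3 endocardial and valve markers summed to 45.2 to 80.4 CPM in KO_TAC, 18.9 to 67.7 CPM in FF_TAC and 20.8 to 43.9 CPM in KO_sham. Of these, Nfatc1 ran from 41.5 to 70.7 CPM in KO_TAC and from 15.5 to 27.1 CPM in KO_sham. In FF_TAC it ran from 14.9 to 65.2 CPM, which overlaps KO_TAC. Cytl1 overlapped (3.75 to 32.3 CPM in KO_TAC, 5.25 to 16.7 CPM in KO_sham), and Hapln1 was at 0 in KO_TAC 2, 3 and 4. No marker of these 3 lists was at 0 throughout a group. The 6 ventricular markers overlapped between the groups. The part of cell makeup in the levels of the receptors and hormones was not tested.

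Downstream of the receptors, 12 of 14 listed genes of cGMP synthesis, action and breakdown were tested in the floxed cohort; Prkg2 and Trpc6 fell to the filter. In KO_TAC against KO_sham 2 fell and 0 rose (DESeq2 the same counts; voom 6 lower and 1 higher), where 11.5% of all genes were called lower and 14.3% higher. The median was −0.21 on the log2 scale against 0.02 for all genes. Pde3a, a phosphodiesterase whose activity cGMP inhibits, was 60.7, 43.8, 39.6 and 51.6 CPM in KO_TAC 1 to 4. It was 73.4, 77.3 and 84.6 CPM in KO_sham 1, 3 and 4 and 78.0 CPM in the library labelled KO_sham 2, with no overlap. It fell by 0.68 on the log2 scale (SE 0.14, adjusted p = 0.00514). Gucy1b1, a subunit of the nitric oxide-sensitive guanylyl cyclase, which makes cGMP without natriuretic peptides, fell by 0.58 (SE 0.19, adjusted p = 0.0400). KO_TAC 2, 3 and 4 had 10.3 to 13.9 CPM of it and KO_TAC 1 had 22.3 CPM, inside the 18.9 to 26.7 CPM of KO_sham. The call of Gucy1b1 was lost in 6 of 16 fits that left out a heart, and that of Pde3a in none.

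Among the listed genes of peptide breakdown, Mme was the one called. It encodes neprilysin, the membrane peptidase known to degrade natriuretic peptides. It was 3.77, 0.975, 0.333 and 1.13 CPM in KO_TAC 1 to 4, below every other heart of the floxed cohort. KO_sham 1, 3 and 4 had 10.7, 6.55 and 6.16 CPM and the library labelled KO_sham 2 had 8.81 CPM. FF_TAC 1 and 4 had 12.3 and 10.8 CPM, with 5.30 and 6.44 CPM in the libraries labelled FF_TAC 2 and 3. Mme fell by 2.33 against KO_sham (SE 0.53, adjusted p = 0.00819) and was lower than in FF_TAC by a log2 value of −2.44 (SE 0.54, adjusted p = 0.00819). Both calls held in all 16 fits that left out a heart, and without KO_TAC 1 the values were −3.33 and −3.45. With the haemoglobin term the second was still called (−2.16, adjusted p = 0.0401) and the first was not (−2.01, adjusted p = 0.101). Among low-haemoglobin hearts alone the second was not called either (−1.91, adjusted p = 0.428). There FF_TAC was the libraries labelled FF_TAC 2 and 3 alone. Of the 6 tested genes of this list, which holds other convertases and peptidases besides, 0 rose and 1 fell in each of these comparisons, where 11.5% and 6.80% of all genes were called lower. Medians were −0.33 and −0.20, beside 0.02 and 0.04 for all genes. DESeq2 gave the same counts, and voom called 1 higher and 3 lower in the first and 1 higher and 1 lower in the second.

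Among 12 transcription factors known to act on the Nppa and Nppb promoters, 2 rose and 1 fell in KO_TAC against KO_sham, a share near the 25.8% of all genes called there. The median was 0.14, beside 0.02 for all genes; DESeq2 gave the same counts and voom 3 higher and 2 lower. Nkx2-5, which binds the AAGTG motif shown above, rose by 0.62 (SE 0.19, adjusted p = 0.0281). It was 109 and 111 CPM in KO_TAC 2 and 3, 65.5 CPM in KO_TAC 4 and 53.1 CPM in KO_TAC 1, against 49.2 to 59.8 CPM in KO_sham. Srf, a factor of muscle gene promoters, rose by 0.45 (SE 0.13, adjusted p = 0.0236), with 91.0 to 123 CPM in KO_TAC above the 60.9 to 88.1 CPM of KO_sham. Mef2a, a factor of muscle genes, fell by 0.62 (SE 0.14, adjusted p = 0.00733), from 171 ± 9.93 to 111 ± 26.0 CPM (SD, n = 4 each). The call of Nkx2-5 was lost in 5 of the 16 fits that left out a heart and that of Srf in 2. Against FF_TAC 1 of the 12 was called, where 14.3% of all genes were (DESeq2 3 higher; voom 3 higher and 1 lower). Tbx20, a T-box factor, was higher in KO_TAC by 0.42 (SE 0.12, adjusted p = 0.0352). It was 90.8 to 116 CPM in KO_TAC and 70.6 to 83.5 CPM in FF_TAC, and the call was lost in 6 of 16 such fits. With the haemoglobin term none of Pde3a, Gucy1b1, Mef2a, Nkx2-5, Srf and Tbx20 was called (adjusted p from 0.0875 for Mef2a to 0.392 for Srf). The calls of Gucy1b1 and Nkx2-5 were lost without the 3 libraries whose Cpt1a goes against their labels. The values were −0.48 (adjusted p = 0.119) and 0.59 (adjusted p = 0.0749).

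**Figure D5:**
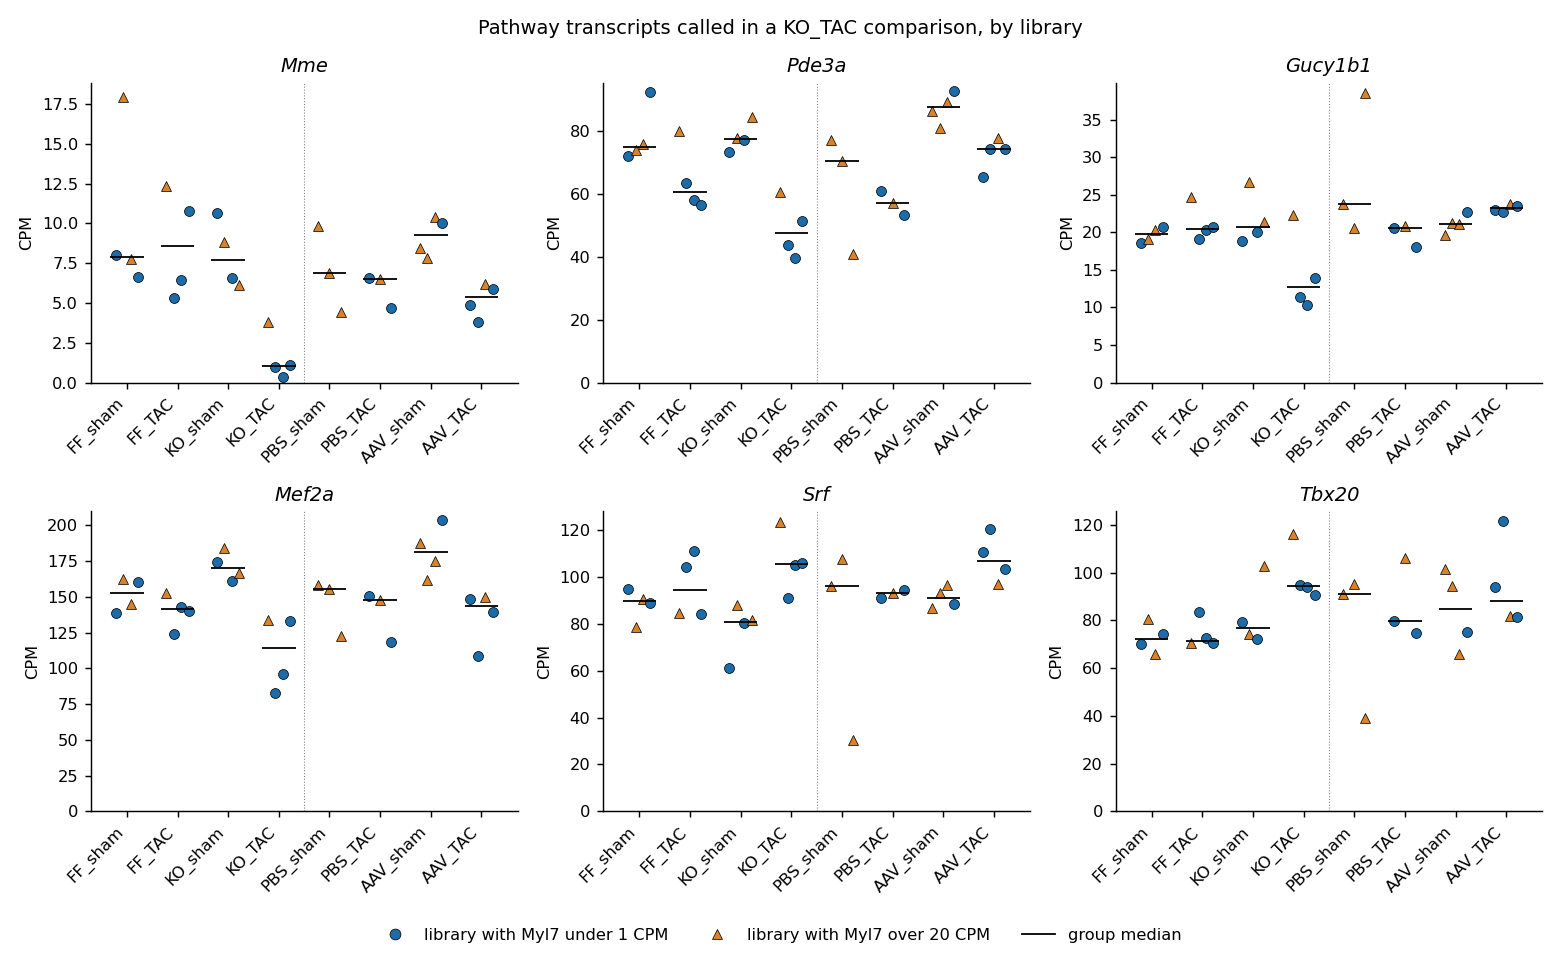
CPM (linear axes from 0) of Mme, Pde3a, Gucy1b1, Mef2a, Srf and Tbx20 in each library by group, with triangles for libraries with Myl7 at 21.2 CPM or more and bars for group medians. Nkx2-5 is not drawn. Mme lies at 0.333 to 3.77 CPM in KO_TAC, and for Gucy1b1 the KO_TAC heart within the range of the other groups is KO_TAC 1.

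In KO_TAC against FF_TAC edgeR called 0 of 12 cGMP genes, with 5 at an unadjusted p under 0.05; DESeq2 called 1 higher and 2 lower, and voom 3 higher and 4 lower. In the other 8 comparisons edgeR called no gene of these 3 lists. Up to 4 genes of a list had an unadjusted p under 0.05 there, DESeq2 called at most 1 in a list and voom at most 3.

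Genes with a pattern across hearts most like that of each hormone were ranked by the lower of 2 Pearson correlations of log2 CPM, over the 16 floxed and the 14 AAV9 libraries, among 10310 genes. For Nppa these were Gnao1 (lower r 0.86), Comp (0.85), Ctsk (0.83), Pam (0.80) and Gpx3 (0.79). Gnao1 encodes a G protein subunit, Comp a matrix protein, Ctsk a lysosomal protease and Pam an enzyme that amidates peptides. For Nppb they were Spsb4 (0.94), Hectd2os (0.93), Tnfrsf12a (0.92), Ankrd1 (0.90) and Prkar1a (0.89). Tnfrsf12a encodes the receptor of the cytokine TWEAK, Ankrd1 a stress-responsive protein of the sarcomere and Prkar1a a regulatory subunit of protein kinase A. Without the 2 hearts farthest from the median of the hormone, r was 0.79 to 0.85 for the Nppa list in the floxed cohort and 0.65 to 0.88 in the AAV9 cohort. For the Nppb list it was 0.88 to 0.95 and 0.85 to 0.97. The points share library depth and scaling, and these correlations describe the libraries only.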

How the data were processed

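RNA of 30 flash-frozen mouse hearts was made into poly(A)-selected, strand-keeping libraries and sequenced in pairs, per the labels' protocols. The authors deposited a table of read counts per Ensembl gene; HISAT2 2.1.0, featureCounts, Subread 1.5.1 and GRCm38 are named in the submitters' processing notes. The annotation release and the strand and multimapping settings are not given in the sources used here, so reads from overlapping genes could be shared or dropped. Identifiers without a symbol (346) held 0.0192% of counts.

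From the counts, each cohort was filtered (filterByExpr), scaled by TMM and fitted with edgeR 4.0.16 (quasi-likelihood test, R 4.3.3), using all 4 of its groups. P-values were adjusted by Benjamini-Hochberg over all genes tested, and an adjusted p under 0.05 was called. SE is the fold change divided by the root of the F statistic. CPM per kilobase divides by the union exon length of GENCODE, and promoters are from RefSeq (GRCm38.p6; 8 of 8 members matched). The members and lists were chosen with earlier results of these data known. From each pathway list, at most 3 called genes per comparison were named, those with the largest change whose higher group mean reached 5 CPM. A further gene list is not reported here. The 5 most alike genes were named per hormone. Alternatives were DESeq2 1.42.0, voom with sample weights (limma 3.58.1), no filter, all 30 libraries in one fit, a replicate block, a Myl7 covariate, a haemoglobin term and leaving out each library. Chosen after seeing the data were fits of libraries with Myl7 under 1 CPM, of those with haemoglobin under 100 CPM, and without the 3 libraries whose Cpt1a goes against the label. No pair of libraries of a group was a duplicate (chi-square per degree of freedom 6.29 to 234 in 42 pairs). The fit was tested on simulated data. Figures were drawn with matplotlib 3.10.9.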

Additional observations from a re-analysis of the deposited data

Results flagged for a closer look

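In 48 sets of 4 libraries (a gene in a group), a highest or lowest library was set apart when the ratio of its gap to the set's range exceeded Dixon's 95% critical value; chance does this in about 1 of 20 sets. Nppa stood at 2439 CPM in FF_sham 2 (14.4 to 283 CPM in the rest of the group) and at 1884 CPM in AAV_sham 2 (16.2 to 206 CPM), with 1105 and 911 CPM of Myl7, the most in their groups. In AAV_TAC 4 Nppa was low, at 213 CPM against 882 to 992 CPM, with 0.288 CPM of Myl7. Nppb was low in FF_TAC 1, at 149.7 CPM against 517 to 564 CPM, the FF_TAC heart with the most Cpt1a and the most Myl7 (74.2 CPM).

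Npr3 was 60.5 CPM in the library labelled KO_sham 2 (17.7 to 22.9 CPM in the rest) and 36.6 CPM in AAV_TAC 3 (17.2 to 18.8 CPM), with 601 and 275 CPM of Myl7. Corin was 199 CPM in KO_TAC 1 (119 to 131 CPM), with 3131 CPM of Myl7. The part of atrial RNA in these values was not tested. Nppc was set apart in FF_sham 4 (0.0616 CPM), FF_TAC 1 (0.0548 CPM), KO_TAC 4 (0.0595 CPM) and AAV_TAC 2 (0.0576 CPM), each resting on 1 count in a group otherwise at 0.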

How the results depend on the processing

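Direction held least for Nppa outside KO_TAC, where no value was called. FF_TAC against FF_sham turned from −1.42 to 0.79 by voom, 0.34 with the Myl7 covariate and 1.43 among low-Myl7 libraries, and ran from −1.87 to 0.73 when a library was left out. KO_sham against FF_sham turned to 0.83 by voom, 0.29 with the replicate block and 0.83 among low-Myl7 libraries (−1.45 to 1.80 with a library left out; for Nppb −0.17 to 0.53). PBS_TAC against PBS_sham turned to 0.78 with the block and 2.32 with the Myl7 covariate (−0.77 to 2.23). AAV_TAC against PBS_TAC turned to 0.76 with the block, 0.38 with the Myl7 covariate and 0.22 among low-Myl7 libraries (−0.79 to 0.37). AAV_sham against PBS_sham ran from −3.18 to 1.41, and the vector interaction from −1.78 to 2.81. Nppb in AAV_sham against PBS_sham turned to 0.11 with the block (−0.79 to 0.46). The cause of these turns was not tested. In KO_TAC against KO_sham voom called 2 members higher and 1 lower. The number of members called there in the main fit (2) was 0 with the haemoglobin term and 1 to 3 with a library left out. In KO_TAC against FF_TAC (1) it was 2 by DESeq2, 2 by voom, 3 with the Myl7 covariate, 0 with the haemoglobin term, 0 among haemoglobin-low libraries and 0 to 2 with a library left out. From 0, it became 1 by DESeq2 in the knockout interaction, 1 by DESeq2 in PBS_TAC against PBS_sham (0 to 1 with a library left out), 1 by DESeq2 and 1 without a filter in AAV_sham against PBS_sham (0 to 2, with Npr1 and Npr2 called without PBS_sham 1), and 1 by voom in AAV_TAC against AAV_sham.

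Over all genes, calls in KO_TAC against KO_sham went from 4031 to 273 with the haemoglobin term and 8336 by voom (1956 to 6441 with a library left out, lowest without KO_TAC 3 and highest without KO_TAC 1). KO_TAC against FF_TAC went from 2235 to 1127, 6002 by voom, 1466 among low-Myl7 libraries and 0 among haemoglobin-low ones (1124 to 3845). It went to 3663 without the 3 libraries whose Cpt1a goes against their labels. The knockout interaction went from 7 to 377 by DESeq2, 2930 by voom, 825 without those 3 libraries, 52 with all libraries in one fit, 25 with the Myl7 covariate, 19 with the block, 17 without a filter, and 0 with the haemoglobin term or in low-Myl7 libraries. FF_TAC against FF_sham had up to 175 (DESeq2; 27 in one fit, 23 low in Myl7) and KO_sham against FF_sham up to 30 (voom; DESeq2 15). In the AAV9 cohort, PBS_TAC against PBS_sham had 5, 370 by DESeq2 and 1796 without PBS_sham 1; AAV_sham against PBS_sham had 2, 385 by DESeq2 and 2821 without PBS_sham 1; AAV_TAC against AAV_sham had 1, and 367 by voom; AAV_TAC against PBS_TAC had 6, and 97 by voom; the interaction had 1, and 16 by DESeq2. The replicate block changed no member's call. Correlations of same-numbered hearts ran from −0.407 to 0.454, and the labels do not say whether the numbers pair the hearts. In each sham group the heart numbered 2 had the most Myl7 and the most Nppa. A shared origin of same-numbered hearts was not tested. Haemoglobin-low hearts include every KO_TAC heart, and of FF_TAC only the libraries labelled FF_TAC 2 and 3. PBS_sham has no heart low in Myl7, so 3 AAV9 comparisons could not be fitted among low-Myl7 hearts. Low counts kept Nppc, Ostn and Trpc6 out of the main fits and Prkg2 out of the floxed cohort.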
